A study of Mus musculus with 83 samples.

Results

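Cortical interneurons that carry parvalbumin or somatostatin descend from the medial ganglionic eminence (MGE) of the embryonic forebrain, and 5 transcription factor genes of that lineage are described here in adult frontal cortex: Lhx6, Sox6, Satb1, Nkx2-1 and Maf. They were chosen by name as 5 of the 48795 genes in the deposited count table, and all 5 were matched to a single Ensembl gene by symbol. Lhx6, Sox6 and Satb1 were higher in PV and SST pools than in VIP pools and in pyramidal pools, Maf was high in all 3 interneuron types and low in pyramidal pools, and Nkx2-1 had no count in 76 of 83 libraries. None of the 4 genes abundant enough to test passed for age in any neuron type, where 0% of all genes tested passed. Nkx2-1 was not tested.

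Each library was made from 125 neurons cut by laser from frontal cortex sections of male C57BL/6 mice. The captured types were interneurons stained for Pvalb (PV, parvalbumin), Sst (SST, somatostatin) or Vip (VIP, the peptide of that name), and pyramidal cells (PYC), stained for Slc17a7. Old mice were 22 months of age and gave 12 libraries of each type, and young mice were 2 months of age and gave 8 libraries of PV and 9 of each other type, 83 in all. The series counts 12 old and 9 young mice, but no label ties a library to a mouse, so that p-values measure the spread between pools.

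In the embryo, Nkx2-1 sets the identity of MGE progenitors and switches on Lhx6, a LIM homeodomain gene that acts as cells leave the cell cycle and is kept in the interneurons that result. Sox6, which encodes a SoxD-family factor without a transactivation domain of its own, and Satb1, which encodes a chromatin organiser, act after Lhx6 in the migration and maturation of PV and SST cells. Maf encodes a basic leucine zipper factor of the same postmitotic lineage, and VIP interneurons come largely from another embryonic source, the caudal ganglionic eminence (CGE).

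The region just upstream of each gene start is shown because Lhx6 is a known direct target of Nkx2-1 in mouse, so that the core letters bound by NKX2-1, TCAAG, can be looked for. A match on the other strand reads CTTGA. RefSeq promoter windows (GRCm38.p6) matched 4 of the 5 genes, with 3 windows for Lhx6, 6 for Sox6, 5 for Satb1 and 1 for Nkx2-1, and only the most upstream start of each gene was searched and is shown. The regions are chr2:36105409-36105658 for Lhx6, chr7:116038797-116038994 for Sox6, chr17:51833291-51833540 for Satb1 and chr12:56536909-56537158 for Nkx2-1, each printed 5′ to 3′ on the minus strand that the gene is read from, with NKX2-1 core matches in capitals.
Lhx6: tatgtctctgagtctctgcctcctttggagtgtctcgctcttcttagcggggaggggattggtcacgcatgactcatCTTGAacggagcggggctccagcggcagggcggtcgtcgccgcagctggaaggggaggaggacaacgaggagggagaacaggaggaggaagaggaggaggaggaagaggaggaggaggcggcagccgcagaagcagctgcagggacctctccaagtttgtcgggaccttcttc
Sox6: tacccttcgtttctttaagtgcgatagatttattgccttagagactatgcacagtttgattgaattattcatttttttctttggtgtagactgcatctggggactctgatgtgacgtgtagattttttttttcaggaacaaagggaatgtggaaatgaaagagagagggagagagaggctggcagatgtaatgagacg
Satb1: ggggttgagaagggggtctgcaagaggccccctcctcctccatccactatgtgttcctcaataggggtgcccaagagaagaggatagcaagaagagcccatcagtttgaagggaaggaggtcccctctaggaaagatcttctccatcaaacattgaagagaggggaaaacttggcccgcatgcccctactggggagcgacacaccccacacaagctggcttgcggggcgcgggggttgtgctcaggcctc
Nkx2-1: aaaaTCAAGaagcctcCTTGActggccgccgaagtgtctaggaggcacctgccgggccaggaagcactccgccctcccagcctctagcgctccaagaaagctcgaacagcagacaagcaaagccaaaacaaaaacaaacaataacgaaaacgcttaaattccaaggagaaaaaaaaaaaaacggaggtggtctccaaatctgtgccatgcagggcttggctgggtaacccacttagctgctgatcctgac
The Lhx6 region shown held 1 match and the Nkx2-1 region 2, while the regions of Sox6 and Satb1 held 0. Among the 32851 windows of 250 bases in the RefSeq table, 35.9% held at least 1 match on either strand, so a match is common. The core letters bound by LIM homeodomain proteins, TAATTA, were in 0 of the 4 regions (that of Sox6 is shorter, with 198 bases) and in 4.84% of the windows.

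All 5 genes lie on the minus strand of GRCm38, with positions from GENCODE release M21. Lhx6 (ENSMUSG00000026890) spans chromosome 2, 36081953 to 36105408, and Sox6 (ENSMUSG00000051910) spans chromosome 7, 115470872 to 116038796. Satb1 (ENSMUSG00000023927) spans chromosome 17, 51736187 to 51833290, and Nkx2-1 (ENSMUSG00000001496) spans chromosome 12, 56531958 to 56536908. Maf (ENSMUSG00000055435) spans chromosome 8, 115682942 to 115707794. Whether counting used strand is unknown here, and annotated genes overlap each of the 5. The overlaps share 104 exon bases with Lhx6 (Gm27953), 128 and 156 with Satb1 (Gm6934 and Gm36931), 440 with Maf (Gm15655) and 0 with Sox6 and Nkx2-1. Gm15655 had 0 counts in the table and Gm27953 had 18 counts in 1 library. Gm6934 had 5044 counts in 66 libraries and Gm36931 had 5271 counts in 47 libraries. The other overlapping genes share 0 exon bases with the member. Those at Sox6 and Nkx2-1 are antisense. At Nkx2-1, Gm26973 had 331 counts in 3 libraries. At Sox6, Gm45025 had 3710 counts in 40 libraries and Sox6os had 158 counts in 4. Whether they affected the counts of the members was not tested.

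Library totals had a median of 6.99 M counts, the shallowest holding 1.46 M and the deepest 27.2 M. In 6 libraries, under 3% of counts came from mitochondrially encoded genes (old PYC 10, young PYC 2, young SST 6, old VIP 11 and young VIP 1 and 3). Vip was at least 286 CPM in VIP pools and at most 33.8 CPM in any other pool, and Sst was at least 529 CPM in SST pools. Sst had a median of 18.2 CPM over the VIP pools but reached 439 CPM in old VIP 9 and 331 CPM in old VIP 11. The range of Pvalb in PV pools overlapped those in SST and in VIP pools. That of Slc17a7 in PYC pools overlapped those in VIP and in SST pools. Pyramidal markers taken as a sum had counts in every interneuron pool, as had Slc17a7 alone. Neurod1, also a pyramidal marker, had a median of 0 in PV and SST pools, as did Emx1 in old SST pools. The summed level of 10 pyramidal markers had a median of 1734 CPM in old PV and 1909 CPM in old SST pools. It was 3128 CPM in old VIP and 3836 CPM in old PYC pools. For Camk2a alone the medians in the same order were 1194, 1294, 2183 and 2037 CPM. For Slc17a7 they were 296, 321, 495 and 720 CPM. How much of these levels came from pyramidal cells was not tested. CPM here is the count of a gene scaled to the library total in the usual way.

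Lhx6 had the largest fold changes of the 4 tested genes between PV or SST pools and VIP or PYC pools. In PV pools its lowest, median and highest levels were 71.2, 114 and 180.3 CPM in old mice, and 47.0, 109 and 128 CPM in young mice. In SST pools they were 69.5, 141 and 206 CPM in old mice, and 79.0, 169.6 and 228 CPM in young mice. In VIP pools they were 0, 1.83 and 109.8 CPM in old mice, and 0, 8.69 and 37.3 CPM in young mice. In PYC pools they were 0, 2.20 and 12.6 CPM in old mice, and 0, 2.16 and 31.0 CPM in young mice. Every PV and SST pool lay above every PYC pool, and 2 of 21 VIP pools reached the range of PV pools. Lhx6 had no count in 3 VIP and 2 PYC pools.

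Sox6 followed the same order with more overlap. In PV pools its lowest, median and highest levels were 67.0, 132 and 196 CPM in old mice, and 29.4, 109 and 174 CPM in young mice. In SST pools they were 50.02, 143 and 229 CPM in old mice, and 75.0, 124 and 162 CPM in young mice. In VIP pools they were 0.390, 21.3 and 159.9 CPM in old mice, and 0.239, 12.4 and 36.8 CPM in young mice. In PYC pools they were 2.72, 9.19 and 34.6 CPM in old mice, and 3.42, 10.3 and 62.4 CPM in young mice. Of 20 PV pools 19 lay above all PYC pools, and 7 VIP pools lay above the lowest PV pool. Sox6 is also known from oligodendrocyte precursors, and the summed level of 10 markers of those cells ran from 150.0 to 774 CPM over all libraries. Its group medians were 419 CPM in old and 469 CPM in young PV pools, 425 CPM in old and 441 CPM in young SST pools, 387 CPM in old and 328 CPM in young VIP pools, and 481 CPM in old and 477 CPM in young PYC pools. Tnr alone made up most of the sum, with group medians from 219 CPM in young VIP to 390 CPM in old PYC pools. No other marker of the list had a group median above 40.6 CPM (Pdgfra in young PYC pools). The part of oligodendrocyte precursors in the Sox6 levels was not tested.

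Satb1 was high in SST pools, intermediate in PV pools and present at lower levels in the other types. In PV pools its lowest, median and highest levels were 182, 273 and 442 CPM in old mice, and 248, 304 and 393 CPM in young mice. In SST pools they were 429.7, 498 and 769 CPM in old mice, and 383, 517 and 853 CPM in young mice. In VIP pools they were 33.5, 62.3 and 225 CPM in old mice, and 4.30, 81.8 and 203 CPM in young mice. In PYC pools they were 69.1, 94.9 and 152 CPM in old mice, and 83.5, 125 and 199 CPM in young mice. Every SST pool lay above every VIP and every PYC pool, and no VIP or PYC pool was without Satb1 counts. Satb1 is also known from cortical projection neurons.

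Maf did not follow the other detected genes. In PV pools its lowest, median and highest levels were 49.2, 91.1 and 146 CPM in old mice, and 35.2, 74.2 and 133 CPM in young mice. In SST pools they were 26.2, 107 and 200.3 CPM in old mice, and 78.0, 120.4 and 211 CPM in young mice. In VIP pools they were 61.6, 109.9 and 210.3 CPM in old mice, and 27.1, 125 and 185 CPM in young mice. In PYC pools they were 0.246, 11.8 and 34.4 CPM in old mice, and 1.64, 8.68 and 33.5 CPM in young mice. The ranges of the 3 interneuron types overlapped, and all PV pools lay above all PYC pools. Maf is also known from microglia, whose 10 markers summed to between 19.8 and 192 CPM in all libraries. Their group medians were 52.5 CPM in old and 55.6 CPM in young PV pools, 98.6 CPM in old and 80.2 CPM in young SST pools, 88.3 CPM in old and 104 CPM in young VIP pools, and 92.9 CPM in old and 65.8 CPM in young PYC pools. The part of microglia in the Maf levels was not tested.

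Nkx2-1 was nearly undetected in these adult neurons. It had counts in 7 of 83 libraries. They were 169 counts in old PV 6 (11.8 CPM), 1 count in old PV 3, 105 counts in young SST 3 (25.4 CPM) and 53 counts in young SST 5 (4.65 CPM). In PYC pools there were 54 counts in old PYC 7 (8.81 CPM), 9 counts in young PYC 5 (2.10 CPM) and 1 count in young PYC 2. All 21 VIP, 12 old SST and 8 young PV libraries had 0. A level of 3 counts is 2.06 CPM in the shallowest VIP library and 1.27 CPM in the shallowest old SST library. Those values cover the sampling of reads alone, and RNA lost before sequencing is not part of them. The gene passed the filter on low counts in no comparison and was not tested.

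**Figure D1:**
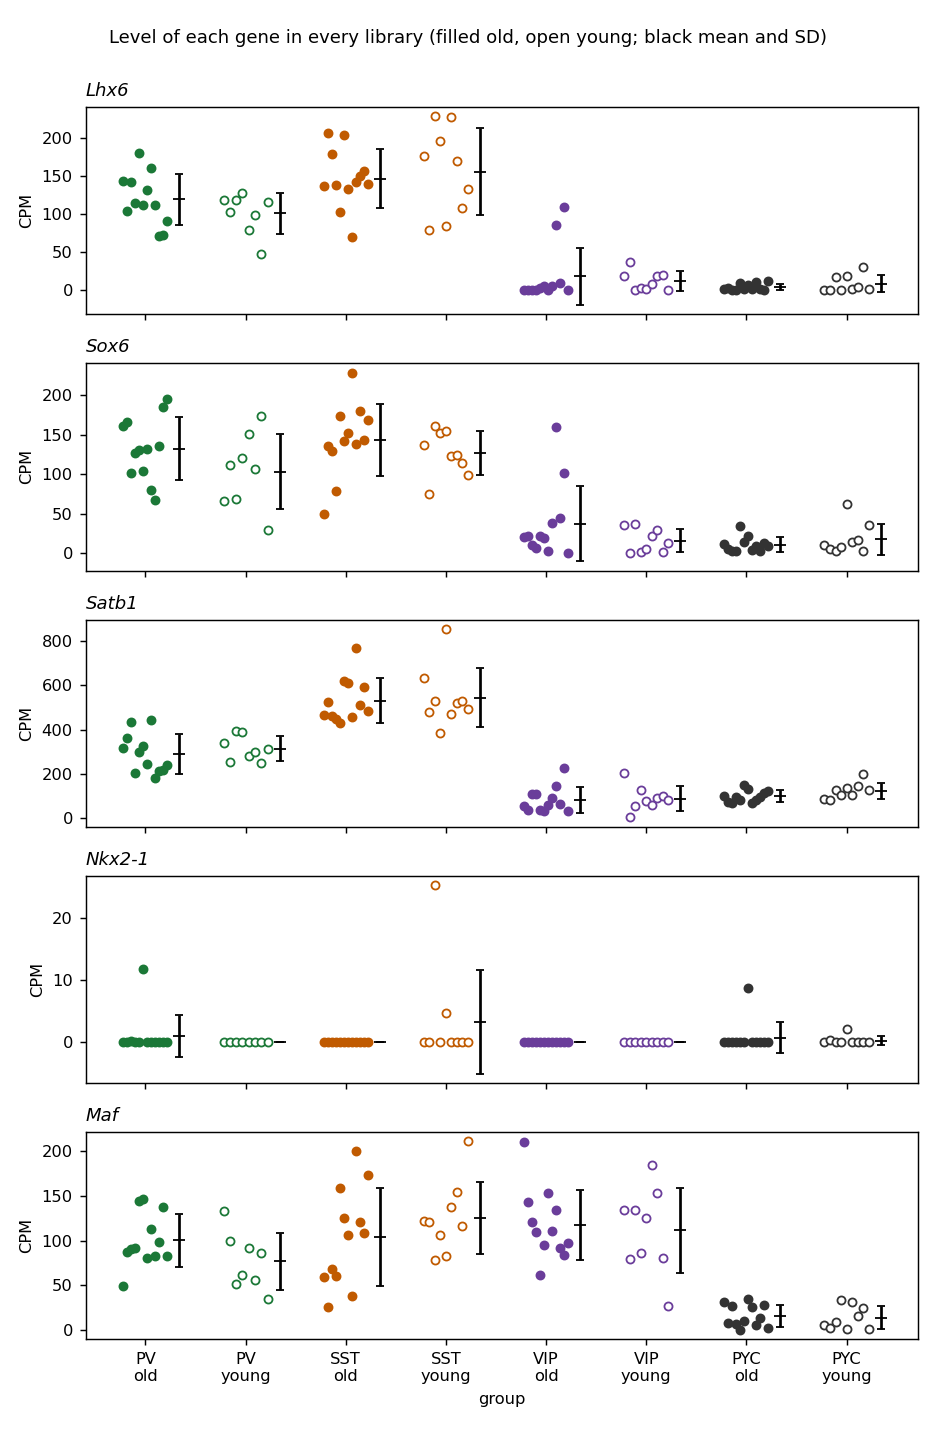
Level of each of the 5 genes in every library, in CPM (y axis, a scale per gene), by neuron type and age (x axis), with old pools filled and left of young pools, drawn open. Black marks give the mean and SD; Lhx6, Sox6 and Satb1 are high in PV and SST pools, Maf is high in PV, SST and VIP pools, and 7 libraries rise above 0 for Nkx2-1.

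CPM divided by the exon length in kilobases (RPKM) allows 1 gene to be set against another, but the order depends on the length used. That length merges all annotated exons: 4805 bases for Lhx6, 14832 for Sox6, 19027 for Satb1 and 8241 for Maf. Which of these exons the neurons use was not tested. In CPM the SST median over both ages was 513 for Satb1 and 142 for Lhx6. On the RPKM scale the median level in SST pools over both ages was 29.6 for Lhx6, 26.9 for Satb1, 14.1 for Maf and 9.36 for Sox6. In PV pools the order was the same, with median levels of 23.7 for Lhx6, 15.7 for Satb1, 10.7 for Maf and 8.34 for Sox6. In VIP pools Maf came first with 13.4, followed by Satb1 with 3.99, Sox6 with 1.40 and Lhx6 with 0.746. In PYC pools Satb1 came first with 5.41, and Maf, Sox6 and Lhx6 had 1.26, 0.655 and 0.452. The ranges of Lhx6 and Satb1 overlapped in PV and in SST pools.

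PV pools were compared with VIP pools to ask how far MGE-derived and mostly CGE-derived interneurons still differ in these genes in the adult. Of the 4 genes tested, 3 were higher in PV pools, against a background of 6.33% of 15823 genes called higher, 7.75% lower and 14.1% in either direction. The log2 fold change of Lhx6 was 2.97 ± 0.65 (SE, adjusted p = 0.000856, edgeR's quasi-likelihood test with Benjamini-Hochberg adjustment), with medians of 114 CPM in PV and 3.59 CPM in VIP pools. Sox6 was 2.40 ± 0.46 higher (SE, adjusted p = 0.000153) and Satb1 1.92 ± 0.24 higher (SE, adjusted p = 5.44e-08), both log2. For Maf the log2 difference was -0.29 ± 0.19 (SE, adjusted p = 0.388), with a 95% interval from -0.66 to 0.08. In a bulk pool, fewer cells of a type and less RNA per cell cannot be told apart.

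SST pools differed from VIP pools in the same 3 genes, where 2.29% of 15620 genes were called higher, 2.28% lower and 4.56% in either direction. Lhx6 was 3.37 ± 0.64 higher on the log2 scale (SE, adjusted p = 0.000429), with medians of 142 CPM in SST and 3.59 CPM in VIP pools. Sox6 was 2.52 ± 0.44 higher (SE, adjusted p = 0.00013) and Satb1 2.67 ± 0.24 higher (SE, adjusted p = 8.84e-11). Maf differed by -0.003 ± 0.19 (SE, adjusted p = 0.997), and the interval of that difference ran from -0.39 to 0.38. Among old pools alone the values were 3.03 for Lhx6 and 1.94 for Sox6, which did not pass (edgeR, adjusted p = 0.0863 and 0.0702). Among young pools alone they were 3.66 and 3.06 and passed (edgeR, adjusted p = 0.00496 and 0.000888). The VIP pools with the highest Lhx6 and Sox6 levels, described next, are old. The difference in age effect between SST and VIP pools did not pass for either gene.

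The 2 VIP pools with the most Sst were also the 2 with the most Lhx6 and Sox6, and they are singled out here after their values were seen. Old VIP 9, with 439 CPM of Sst and 286 CPM of Vip, the lowest Vip level of the type, had 85.8 CPM of Lhx6, 159.9 CPM of Sox6, 145 CPM of Satb1 and 134 CPM of Maf. Old VIP 11, with 331 CPM of Sst and 624.5 CPM of Vip, had 109.8 CPM of Lhx6, 102 CPM of Sox6, 225 CPM of Satb1 and 84.1 CPM of Maf, and is also 1 of the libraries with few mitochondrial counts. The other 19 VIP pools stayed at or below 37.3 CPM of Lhx6 and 44.5 CPM of Sox6, with at most 55.7 CPM of Sst. The summed level of 9 SST markers reached 2406 CPM in old VIP pools, against at most 635 CPM in young VIP pools and a median of 4295 CPM in old SST pools. Without these 2 pools the log2 difference of Lhx6 was 4.35 ± 0.52 for PV against VIP (SE, adjusted p = 4.12e-08) and 4.71 ± 0.52 for SST against VIP (SE, adjusted p = 1.92e-08). That of Sox6 was 2.88 ± 0.42 for PV against VIP (SE, adjusted p = 1.27e-06) and 2.99 ± 0.40 for SST against VIP (SE, adjusted p = 4.93e-07). Leaving out the VIP pools with the most Lhx6 and Sox6 widens these differences by selection, so the p-values are given only as a description.

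**Figure D2:**
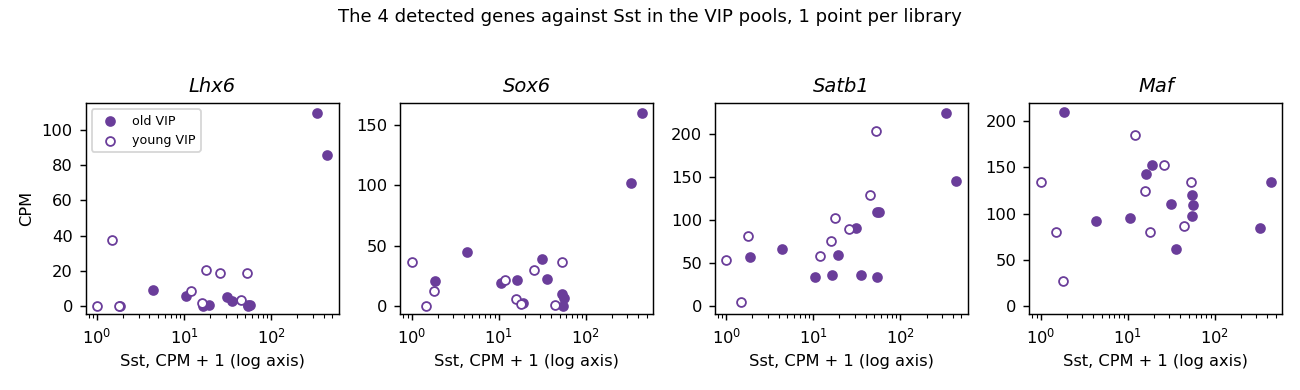
Level of Lhx6, Sox6, Satb1 and Maf in CPM (y axis) against that of Sst in CPM plus 1 on a log axis (x axis) in the VIP pools, 1 point per library, old filled and young open. The 2 old pools with 331 and 439 CPM of Sst have the highest Lhx6 and Sox6 levels, and their Maf levels of 84.1 and 134 CPM lie within the range of the others.

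Young VIP 2, also picked out after its values were seen, showed another combination. It had 37.3 CPM of Lhx6 with 0.239 CPM of Sox6, 4.30 CPM of Satb1 and 0.478 CPM of Sst. It was the lowest library of all 83 for both Sox6 and Satb1 while having the third highest Lhx6 level among VIP pools.

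Against pyramidal cells all 4 tested genes were higher in PV pools, where 7.75% of 15823 genes were called higher, 8.61% lower and 16.4% in either direction. The log2 fold changes were 4.25 ± 0.51 for Lhx6 (SE, adjusted p = 1.93e-08), 3.09 ± 0.31 for Sox6 (SE, adjusted p = 5.75e-12), 1.49 ± 0.13 for Satb1 (SE, adjusted p = 8.98e-16) and 2.61 ± 0.35 for Maf (SE, adjusted p = 1.89e-08). In SST pools all 4 were higher than in PYC pools as well, where 4.90% of 15584 genes were called higher, 4.75% lower and 9.66% in either direction. There the values were 4.62 ± 0.51 for Lhx6 (SE, adjusted p = 4.35e-09), 3.20 ± 0.30 for Sox6 (SE, adjusted p = 3.28e-13), 2.23 ± 0.11 for Satb1 (SE, adjusted p = 8.23e-27) and 2.89 ± 0.37 for Maf (SE, adjusted p = 4.43e-08).

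How much of each gene was seen in PYC pools differed from gene to gene. The mean level in PYC pools was 5.35% of that in PV pools for Lhx6, 11.6% for Sox6, 16.6% for Maf and 36.7% for Satb1. The same share was 2.36% for Gad1 and 6.31% for Gad2, the genes of the GABA-synthesising enzymes. Relative to SST pools the PYC share was 3.99% for Lhx6, 10.3% for Sox6, 13.3% for Maf and 20.5% for Satb1, against 7.95% for Gad1 and 3.83% for Gad2. How far interneuron RNA in the PYC pools makes up these levels was not tested.

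VIP pools were above PYC pools in Maf alone among the 4 genes, with 2.88 ± 0.35 on the log2 scale (SE, adjusted p = 5.96e-09), where 3.49% of 15482 genes were called higher, 3.39% lower and 6.89% in either direction. Lhx6 had 1.25 ± 0.80 (SE, adjusted p = 0.520), with medians of 3.59 CPM in VIP and 2.17 CPM in PYC pools, and the value was -0.12 without the 2 VIP pools with over 300 CPM of Sst. Sox6 had 0.69 ± 0.51 (SE, adjusted p = 0.625). Satb1 had -0.45 ± 0.22 (SE, adjusted p = 0.290), with medians of 75.8 CPM in VIP and 103 CPM in PYC pools. Satb1 passed with -0.67 ± 0.22 (SE, adjusted p = 0.0499) when the libraries with few mitochondrial counts were left out.

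PV pools and SST pools, both of MGE origin, differed in Satb1. It was lower in PV pools by a log2 value of -0.76 ± 0.11 (SE, adjusted p = 5.72e-08), with a median of 298 CPM (lowest 182, highest 442) in PV and 513 CPM (lowest 383, highest 853) in SST pools, where 5.88% of 15841 genes were called lower, 4.53% higher and 10.4% in either direction. The Satb1 ranges of the 2 types overlapped. No PV pool exceeded the highest SST pool and all 21 SST pools exceeded the lowest PV pool, which also held for Lhx6 and Sox6. Lhx6 had -0.39 ± 0.15 (SE, adjusted p = 0.0868) and did not pass. It passed with limma-voom and quality weights (-0.47, adjusted p = 0.0310) and with the F number of the sample titles as a factor (-0.49, adjusted p = 0.0311). Sox6 differed by -0.13 ± 0.16 (SE, adjusted p = 0.787), with an interval from -0.45 to 0.20, and Maf by -0.29 ± 0.19 (SE, adjusted p = 0.435), with an interval from -0.67 to 0.08.

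**Figure D3:**
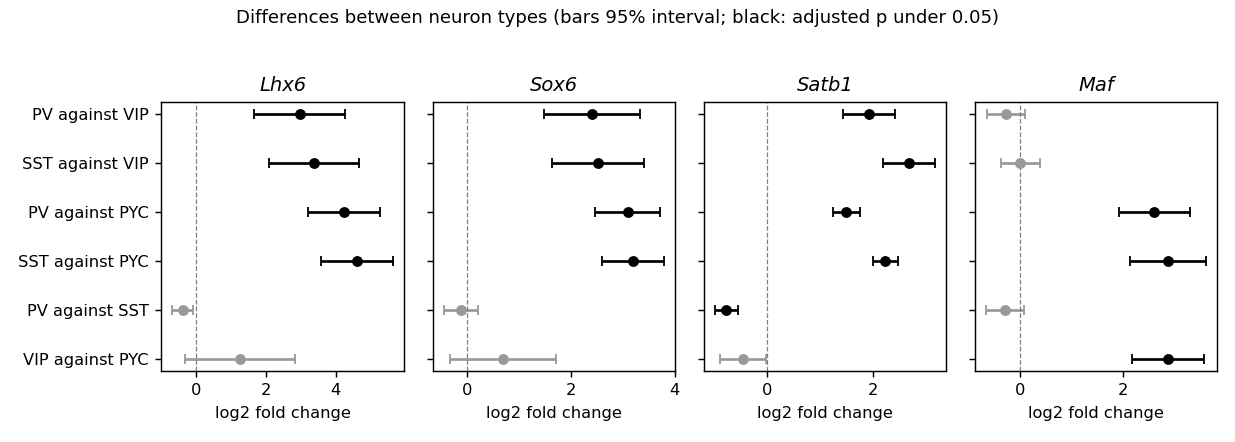
Log2 fold change between neuron types (x axis) for each of 6 pairs (y axis, first-named type over the second), in a panel per gene, with 95% intervals as bars. Black points passed at adjusted p under 0.05 and grey points did not; all 4 genes lie right of 0 for PV and SST over PYC, and Maf lies at 0 for SST over VIP.

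Scaled to Gad1 instead of the library total, the gap between PV and SST pools was wider and, for Lhx6, Sox6 and Satb1, that between PV and VIP pools narrower. Gad1 averaged 1734 ± 278 CPM in PV pools (SD, n = 20), 514 ± 170 CPM in SST pools (SD, n = 21) and 517 ± 143 CPM in VIP pools (SD, n = 21). Per 1000 counts of Gad1, the median of Lhx6 was 65.7 counts in PV, 266 in SST and 10.5 in VIP pools. That of Sox6 was 74.4 counts in PV, 253 in SST and 34.4 in VIP pools. That of Satb1 was 169 counts in PV (lowest 111, highest 247), 1109.7 in SST (lowest 440.1, highest 2070.3) and 135 in VIP pools (lowest 6.22, highest 676), and on this scale the range of PV pools lay within that of VIP pools for Satb1. That of Maf was 52.9 counts in PV, 209 in SST and 230.4 in VIP pools.

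Age was compared within each neuron type. None of the 4 tested genes passed in any type, where 0% of genes were called in PV (0 of 12564), SST (0 of 12805), VIP (0 of 12337) and PYC pools (0 of 12508) by edgeR. At an unadjusted p under 0.05 there were 291 genes in PV, 368 in SST, 368 in VIP and 364 in PYC pools, and none of the 4 was among them. DESeq2 called 2 genes in PV, 1 in SST, 0 in VIP and 0 in PYC pools.

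In the PV pools Lhx6 averaged 119.8 ± 33.4 CPM in old mice (SD, n = 12) and 101.1 ± 26.6 CPM in young mice (SD, n = 8). The log2 difference was 0.21 ± 0.21 (SE), with a 95% interval from -0.22 to 0.64. Old PV pools had 132 ± 40.1 CPM of Sox6 (SD, n = 12) and young PV pools 103.5 ± 47.3 CPM (SD, n = 8), a log2 difference of 0.31 ± 0.24 (SE, interval -0.18 to 0.80). Satb1 differed by -0.14 ± 0.16 (SE, interval -0.46 to 0.19) and Maf by 0.34 ± 0.25 (SE, interval -0.16 to 0.85). Old and young pools overlapped for each gene.

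In the SST pools Satb1 was the most narrowly bounded, with 530.5 ± 99.7 CPM in old mice (SD, n = 12), 543 ± 134 CPM in young mice (SD, n = 9) and a log2 difference of -0.03 ± 0.13 (SE, interval -0.30 to 0.23). Lhx6 differed by -0.09 ± 0.21 (SE, interval -0.51 to 0.33), Sox6 by 0.17 ± 0.21 (SE, interval -0.25 to 0.60) and Maf by -0.26 ± 0.27 (SE, interval -0.79 to 0.28). Old and young pools overlapped for each of the 4 genes, and these intervals do not show that the ages are alike.

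In the VIP pools the intervals of the low genes were wide. Lhx6 averaged 18.4 ± 37.5 CPM in old mice (SD, n = 12) and 12.1 ± 12.6 CPM in young mice (SD, n = 9), with a log2 difference of 0.52 ± 1.11 (SE, interval -1.72 to 2.76), and the value was -2.24 without the 2 old pools with over 300 CPM of Sst. Sox6 averaged 37.4 ± 47.3 CPM in old mice (SD, n = 12) and 16.2 ± 15.1 CPM in young mice (SD, n = 9), with a difference of 1.30 ± 0.77 (SE, unadjusted p = 0.0963 from edgeR), and 0.35 without those 2 pools. Satb1 differed by -0.02 ± 0.38 (SE, interval -0.78 to 0.74) and Maf, at 118 ± 39.0 CPM in old mice (SD, n = 12) and 112 ± 47.6 CPM in young mice (SD, n = 9), by 0.16 ± 0.27 (SE, interval -0.39 to 0.70).

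In the PYC pools Satb1 averaged 99.2 ± 26.3 CPM in old mice (SD, n = 12) and 124 ± 35.4 CPM in young mice (SD, n = 9). The log2 difference was -0.32 ± 0.21 (SE, interval -0.73 to 0.10, unadjusted p = 0.133 from edgeR). Lhx6 had -0.999 ± 1.13, Sox6 -0.72 ± 0.71 and Maf 0.23 ± 0.74 (SE).

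**Figure D4:**
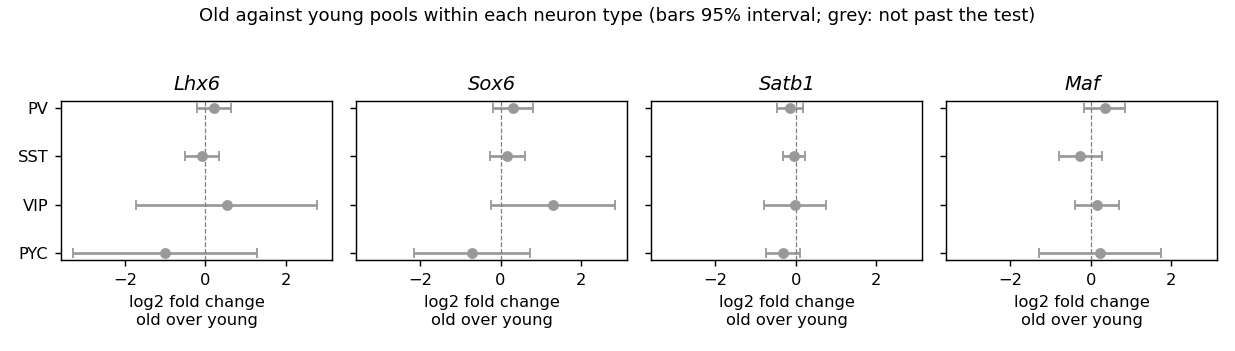
Log2 fold change of old over young pools (x axis) of Lhx6, Sox6, Satb1 and Maf in each neuron type (y axis), in a panel per gene, with 95% intervals as bars. All points are grey because none passed. For Lhx6 and Sox6 the intervals are wider in VIP and PYC pools than in PV and SST pools, and for Maf the interval is widest in PYC pools.

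The difference in age effect between neuron types was tested in 6 pairs of types. No member passed in any pair, with adjusted p of at least 0.999 by edgeR. The background was 3 of 15620 genes called for SST against VIP (0.0192%), 1 of 15482 for VIP against PYC (0.00646%) and 0 for PV against VIP, PV against PYC, SST against PYC and PV against SST. Genes at an unadjusted p under 0.05 numbered 825, 788, 605 and 734 in those 4 pairs, and DESeq2 called 74, 48, 22 and 56. The largest of the 24 member values was that of Sox6 between VIP and PYC pools, 1.98 ± 1.03 (SE, unadjusted p = 0.0593 from edgeR).

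A list of 28 other transcription factors and co-factors of the GABAergic lineage showed mixed directions between interneuron types. PV against VIP had 6 higher and 5 lower of 24 tested, where 6.33% of all genes were higher and 7.75% lower, with a median log2 fold change of -0.33 beside -0.09 over all genes. Npas3, which encodes a PAS-domain factor, was -1.86 ± 0.37 in PV against VIP pools (SE, adjusted p = 6.53e-05). Sall1, a zinc finger gene, was -3.52 ± 0.46 (SE, adjusted p = 2.67e-08) in PV against VIP and -3.11 ± 0.39 (SE, adjusted p = 6.77e-09) in SST against VIP pools. Zeb2, which encodes a repressor needed for interneuron migration, was lower by smaller amounts, -0.65 ± 0.10 and -0.77 ± 0.11 (SE). SST against VIP had 3 higher and 3 lower of 23 tested, where 2.29% of all genes were higher and 2.28% lower, with a median of -0.20 beside -0.01.

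Against PYC pools the same list had 10 higher and 4 lower of 23 tested in PV, 11 higher and 3 lower of 23 in SST, and 10 higher and 4 lower of 24 in VIP pools. Over all genes the shares higher and lower were 7.75% and 8.61% in PV, 4.90% and 4.75% in SST, and 3.49% and 3.39% in VIP against PYC pools. Dlx1, a homeobox gene of all GABAergic lineages, was 5.04 ± 0.52 higher in PV, 5.13 ± 0.52 in SST and 5.72 ± 0.54 in VIP than in PYC pools (log2, SE). Between PV and SST pools 1 gene of the list was higher and 2 lower of 24 tested, beside 4.53% higher and 5.88% lower over all genes, so that the count of 3 in the list is close to the background of 10.4% in either direction. Mef2c, a MADS-box factor, was 0.83 ± 0.11 higher in PV than in SST pools (SE, adjusted p = 3.69e-09), and Npas3 was -1.64 ± 0.34 in PV against SST (SE, adjusted p = 0.000211).

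Genes that MGE-derived interneurons use, a list of 21 receptors, channels, transmitter enzymes and peptides, had 10 higher and 6 lower of 20 tested in PV against VIP pools. In SST against VIP pools 10 were higher and 1 was lower. Over all genes 6.33% were higher and 7.75% lower in PV against VIP, and 2.29% higher and 2.28% lower in SST against VIP pools. Kcnc2, which encodes a fast potassium channel subunit, was 2.29 ± 0.14 higher in PV than in VIP pools (SE, adjusted p = 6.20e-23) and 1.34 ± 0.15 higher in SST than in VIP pools (SE, adjusted p = 3.37e-11). Reln, the reelin gene, was 3.29 ± 0.29 higher in SST than in VIP pools (SE, adjusted p = 5.06e-11), and Erbb4, a neuregulin receptor gene, was -1.34 ± 0.13 in that comparison (SE, adjusted p = 9.45e-13). Against PYC pools 12 were higher in PV, 17 in SST and 13 in VIP, and 0 were lower, beside 7.75%, 4.90% and 3.49% of all genes higher.

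The 7 genes listed as regulators or markers of CGE-derived cells ran the other way from Lhx6, Sox6 and Satb1. All 7 were lower in PV than in VIP pools and 6 of 7 were lower in SST than in VIP pools, where 7.75% and 2.28% of all genes were lower. Prox1, a homeobox gene of CGE-derived cells, was -5.28 ± 0.60 in PV against VIP (SE, adjusted p = 1.07e-08) and -5.18 ± 0.53 in SST against VIP pools (SE, adjusted p = 2.01e-09). Nr2f2, an orphan nuclear receptor gene, was -4.74 ± 0.53 in PV against VIP (SE, adjusted p = 3.36e-11) and -1.16 ± 0.28 in SST against VIP pools (SE, adjusted p = 0.00465). Between PV and SST pools Nr2f2 was -3.58 ± 0.59 (SE, adjusted p = 3.15e-06).

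**Figure D5:**
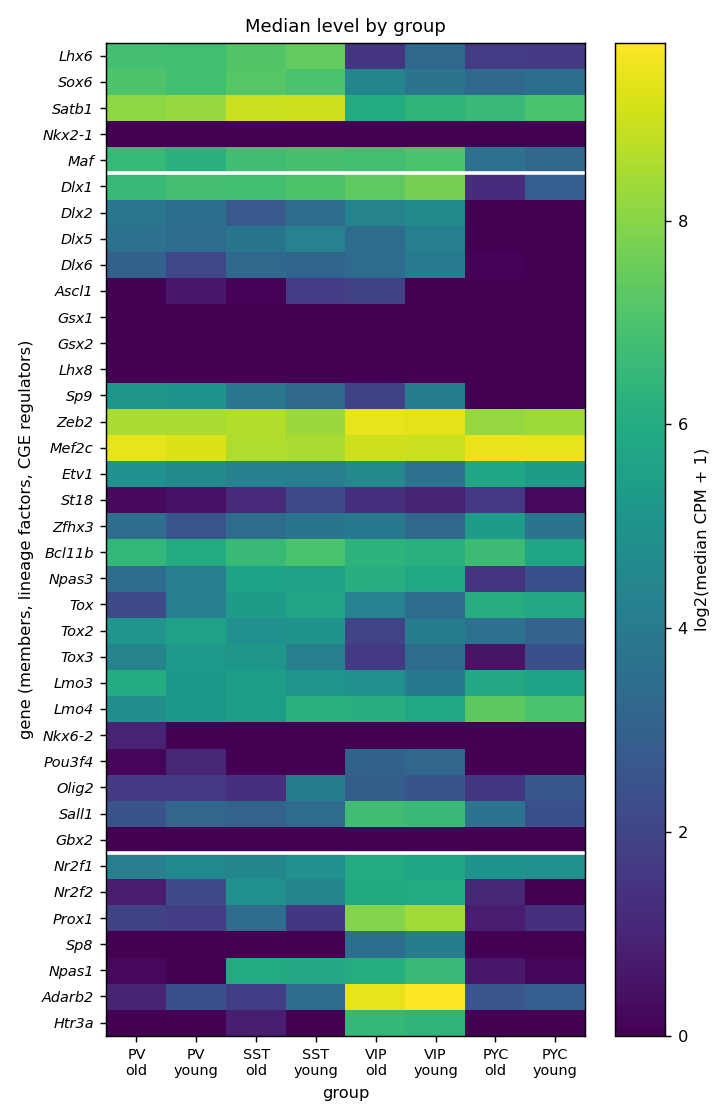
Median level of each gene (y axis) in each group (x axis, old left of young within a type), as log2(CPM + 1). Shown are the 5 genes, the GABAergic lineage factors that are reported here and the regulators or markers of CGE-derived cells. Lhx6, Sox6 and Satb1 are high in PV and SST columns, and Prox1, Adarb2 and Htr3a are high in VIP columns.

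Of 22 SoxD, Satb, Lhx, Maf and Nkx2 family relatives of the 5 genes, 10 were abundant enough to test in PV against VIP pools, where 1 was higher and 1 lower, and 8 in SST against VIP pools, where 1 was higher and 0 lower. Against PYC pools 2 were higher and 2 lower of 8 tested in PV, 1 higher and 3 lower of 7 in SST, and 1 higher and 1 lower of 9 in VIP pools. Between PV and SST pools 2 were higher and 0 lower of 9 tested. The share of all genes called in either direction was 14.1% for PV and 4.56% for SST against VIP, 16.4% for PV, 9.66% for SST and 6.89% for VIP against PYC, and 10.4% for PV against SST. Sox5, the SoxD relative of Sox6, was -1.29 ± 0.24 in SST against PYC pools (SE, adjusted p = 2.98e-05). It was 1.05 ± 0.24 higher in PV than in SST pools (SE, adjusted p = 0.00102), where Sox6 did not pass. No gene of these lists was called for age in any type.

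The genes whose log2 CPM followed each member most closely over the 83 libraries are given as a description, since the libraries fall into 4 types and share depth. For Lhx6 they were Utrn (Pearson r 0.78), Kcnc2 (0.76), Cacna2d2 (0.75), Sox6 (0.75) and Tmem132c (0.75). For Sox6 they were Utrn (0.79), Nxph1 (0.79), Satb1 (0.77), Cacna2d2 (0.77) and Rab3b (0.76). For Satb1 they were Cacna2d2 (0.79), Crhbp (0.79), Rab3b (0.79), Sox6 (0.77) and Etl4 (0.77). Maf had other neighbours, Arl4c (0.81), Nhs (0.78), Scg2 (0.78), Dlx1 (0.77) and Dlx6os1 (0.75). Over all libraries r was 0.75 for Lhx6 with Sox6, 0.75 for Lhx6 with Satb1 and 0.77 for Sox6 with Satb1, and 0.37, 0.36 and 0.27 for Maf with Lhx6, Sox6 and Satb1. Within the 20 PV pools r was -0.36 for Lhx6 with Sox6, 0.50 for Lhx6 with Satb1 and -0.27 for Sox6 with Satb1, and within the 21 SST pools it was 0.01, -0.09 and 0.18.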

How the data were processed

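The authors deposited 1 table of raw counts, with a line for each Ensembl gene and a column for each of the 83 libraries. The kit kept strand and was made for very small amounts of RNA, per the labels' protocols. The submitters' processing notes name HISAT2 and GRCm38. Not given in the sources used here are the counting tool, its annotation and its use of strand. Of 48795 genes, 48349 matched a symbol in GENCODE release M21, and no libraries held identical values.

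Neuron types were compared in pairs with edgeR 4.0.16 in R 4.3.3 (quasi-likelihood F-test, robust, TMM, filterByExpr with a minimum count of 10, 2-sided, Benjamini-Hochberg adjustment over all genes tested), in a fit of type and age groups with the ages weighted equally. Age was tested within each type, and the difference in age effect in the fits of pairs. Standard errors come from the F statistic. Levels are CPM of the library total, or RPKM, which is CPM over the length of the merged exons in kilobases. Intervals do not include any error from the capture, and counts carry no molecular identifiers.

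The 5 genes and all gene lists were chosen with earlier results of these data known. From each list, up to 4 genes with the smallest p in a comparison were eligible to be named, and some of them are not reported here. Alternatives tried were DESeq2 1.42.0, edgeR with RLE factors, with every gene kept or with genes kept at 1 CPM or more in 6 libraries, limma-voom (limma 3.58.1) with quality weights, all 8 groups in 1 fit, the library total or the F number of the titles (not explained by the labels) as covariate, old or young pools alone, and leaving out libraries.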

Additional observations from a re-analysis of the deposited data

Results flagged for a closer look

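In 18 combinations of a gene and a young group, 2 levels of Nkx2-1 lay far above the others of their group by Dixon's criterion, which flags about 1 in 20 groups by chance and, where most libraries are at 0, readily marks the highest. Young SST 3 had 25.4 CPM (105 counts), where the next young SST library had 4.65 CPM and 7 of 9 had 0. Young PYC 5 had 2.10 CPM (9 counts), where the next young PYC library had 0.3003 CPM and 7 of 9 had 0. Old groups hold 12 libraries each and were not checked this way; there Nkx2-1 had 11.8 CPM in old PV 6, where the next was 0.181 CPM and 10 of 12 had 0, and 8.81 CPM in old PYC 7, where 11 of 12 had 0.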

How the results depend on the processing

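No paired analysis was possible because the labels tie no library to a mouse and the library numbers follow the order of the records. Of the member values between types, 237 alternatives kept direction and side of the threshold, 10 reversed, 3 newly passed and 2 no longer passed. All values that reversed were uncalled.

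Counts of called genes moved most without the filter on low counts. Age calls were then 6355 in PV, 5734 in SST, 7117 in VIP and 6505 in PYC pools, against 0 in each with it. Between types they were 5915 for PV against VIP, 4318 for SST against VIP, 5722 for PV against PYC, 5029 for SST against PYC, 4423 for PV against SST and 4656 for VIP against PYC. Of those age calls, 6286 in PV, 5659 in SST, 7010 in VIP and 6413 in PYC pools were of genes that failed the filter.

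Age calls were 2 in PV and 1 in SST pools with DESeq2, 2 in PV, 1 in SST and 2 in PYC pools with voom weights, and 1 in PV and 13 in PYC pools with all groups in 1 fit. Leaving out each library in turn gave 0 to 0 age calls in every type. Among old pools alone calls between types were 1129, 287, 1403, 887, 801 and 537 in the order above, and among young pools alone 842, 177, 1157, 522, 644 and 308. With all groups in 1 fit there were 1274 for SST against VIP and 1817 for VIP against PYC, and voom weights gave 1617 for VIP against PYC. Calls for a difference in age effect, in the same order of pairs, were 74, 28, 48, 22, 56 and 15 with DESeq2 and 107, 98, 155, 131, 156 and 96 with all groups in 1 fit. The filter on CPM gave 5 for PV and VIP, 18 for SST and VIP, 4 for PV and SST and 9 for VIP and PYC. There was 1 for SST and VIP without the 2 VIP libraries that exceed 300 CPM of Sst, and 0 for VIP and PYC without the libraries with few mitochondrial counts. The cause was not tested.

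With the F number as factor the log2 age difference of Lhx6 was -0.032 in PV, 0.079 in SST and -0.63 in VIP pools, and that of Maf was -0.14 in PYC pools. With voom weights it was 0.10 for Satb1 in SST, -1.97 for Lhx6 in VIP and 0.070 for Satb1 in VIP pools. Lhx6 in VIP pools had -0.45 without the libraries with few mitochondrial counts and -2.24 without the 2 Sst-rich VIP libraries. Leaving out 1 library gave -0.18 to 0.020 for Lhx6 and -0.091 to 0.078 for Satb1 in SST pools, and -0.30 to 1.08 for Lhx6 and -0.24 to 0.20 for Satb1 in VIP pools, where Lhx6 turned negative without old VIP 9 (-0.10) or old VIP 11 (-0.30).

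For the difference in age effect, the fit without the 2 Sst-rich VIP libraries gave 2.39 for Lhx6 and 0.26 for Satb1 (PV minus VIP), 2.04 and 0.34 (SST minus VIP) and -1.24 and -0.072 (VIP minus PYC). Without the libraries with few mitochondrial counts Lhx6 had 0.66 (PV minus VIP) and 0.37 (SST minus VIP), and Maf 0.14 (VIP minus PYC). Satb1 had 0.068 (SST minus VIP) with RLE factors and 0.069 with DESeq2. Maf in SST against VIP pools was 0.0067 without the filter, 0.0074 with the filter on CPM, 0.0062 with voom weights, 0.039 with the F number, 0.0059 without the libraries with few mitochondrial counts, 0.19 among young pools and 0.0157 with all groups in 1 fit. Maf in PV against SST was 0.0068 among old pools. In VIP against PYC pools Lhx6 was -0.12 without the 2 Sst-rich VIP libraries and Sox6 was -0.29 among young pools. Lhx6 and Sox6 no longer passed in SST against VIP among old pools (3.03 and 1.94). For Nkx2-1, 3 counts correspond to 0.110 CPM in the deepest and 2.06 CPM in the shallowest library. That covers the sampling of reads alone, so a count of 0 does not exclude higher levels in the cells.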
